A study of Mus musculus with 16 samples.

Results

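The genes described here are 10 components and regulators of the smooth muscle and myofibroblast contractile apparatus: *Acta2*, *Actg2*, *Tagln*, *Cnn1*, *Cnn2*, *Myl9*, *Myh11*, *Myocd*, *Smtn* and *Cald1*. They were taken by name, through the Ensembl identifiers of the rows, from 49585 genes in each of 2 RNA-seq count tables, and each had 1 row in both. The tables hold 16 libraries of C2C12, a mouse line of skeletal myoblasts that fuse into myotubes when serum is withdrawn. The study asked how AMP-activated protein kinase (AMPK) and its phosphorylation of the DNA demethylase TET2 bear on myogenesis. The first table compared WT with AMPK-KO cells, in which the catalytic subunit genes *Prkaa1* and *Prkaa2* were edited with CRISPR/Cas9, at d0 (myoblasts) and at d8 of differentiation in low horse serum. Each of its 4 groups had 2 libraries, and the study describes independent AMPK-KO lines, but the labels do not say which line each AMPK-KO library came from. The second table held undifferentiated cells only, all of them AMPK-null. They carried a FLAG-BirA tag knocked into the endogenous *Tet2* gene, either on the wild-type protein (TET2-WT) or together with the phospho-mimicking S97E substitution (TET2-S97E), with 2 clones of each genotype and 2 replicates of each clone. Each clone is 1 edited cell population, so a difference between genotypes in this table rests on 2 clones against 2.

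Smooth muscle contracts through actin and myosin filaments whose isoforms differ from those of skeletal muscle, and calponins, caldesmon, transgelin and smoothelin bind these filaments and tune or organise them. Serum response factor (SRF) drives most of these genes by binding a DNA element called the CArG box, either with the smooth muscle coactivator myocardin, the product of *Myocd*, or with the more widely expressed MRTF coactivators, which respond to the state of the actin cytoskeleton. Several of the genes, *Acta2* above all, are also switched on in activated fibroblasts (myofibroblasts) and transiently in immature skeletal muscle cells, so their presence alone does not identify a cell type.

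The windows around the start sites of *Myl9*, *Cnn2* and *Acta2* are shown because SRF elements lie close to the start site in many smooth muscle genes. Those of *Myl9* and *Cnn2* held the element, and *Acta2* was the most abundant member per length in every library but the 2 of TET2-WT clone 1, where *Cnn2* was. The 2 windows of *Cald1*, which also passed a test below, held no full CArG box and are not printed. The sequences come from RefSeq on GRCm38.p6, run from 250 bases before to 50 bases after the annotated start, and were found for 6 of the 10 genes. In *Myl9* and *Cnn2* the capitals mark a CArG box, and in *Acta2* they mark the M-CAT element, CATTCC or its reverse complement, which TEAD factors bind.
Myl9, chr2:156775214-156775513, plus strand: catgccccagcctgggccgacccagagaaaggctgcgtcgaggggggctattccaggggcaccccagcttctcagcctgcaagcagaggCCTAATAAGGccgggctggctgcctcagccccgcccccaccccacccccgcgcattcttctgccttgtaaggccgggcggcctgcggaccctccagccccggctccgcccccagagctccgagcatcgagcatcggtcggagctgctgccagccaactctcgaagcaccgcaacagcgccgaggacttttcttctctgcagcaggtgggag
Cnn2, chr10:79988350-79988649, plus strand: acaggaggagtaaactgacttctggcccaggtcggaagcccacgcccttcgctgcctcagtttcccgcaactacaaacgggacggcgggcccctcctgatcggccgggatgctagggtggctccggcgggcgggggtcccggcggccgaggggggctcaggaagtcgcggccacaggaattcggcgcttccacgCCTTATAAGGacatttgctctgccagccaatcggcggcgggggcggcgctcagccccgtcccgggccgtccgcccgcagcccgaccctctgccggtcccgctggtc
Acta2, chr19:34255324-34255623, minus strand: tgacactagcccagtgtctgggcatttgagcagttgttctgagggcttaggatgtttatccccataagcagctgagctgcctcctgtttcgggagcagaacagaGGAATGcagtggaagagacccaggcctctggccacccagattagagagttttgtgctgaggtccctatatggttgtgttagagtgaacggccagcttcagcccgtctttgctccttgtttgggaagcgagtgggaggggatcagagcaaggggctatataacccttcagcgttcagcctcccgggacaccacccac
The CArG box of *Myl9* began 161 bases before the start site and that of *Cnn2* 56 bases before it. A CArG box on either strand was found in 535 of 32851 RefSeq promoter windows of this length (1.63%) and in 2 of the 7 windows of these genes. The *Acta2* window held no full CArG box, but 2 of its stretches, 84 and 34 bases before the start, differed from the element by 1 base, which was so for at least 1 stretch in 21.1% of all windows (full elements counted with them). Such a stretch also lay 203 bases before a start site of *Cald1* and, beside the full element, 99 bases before that of *Myl9*. M-CAT was found in 14.7% of all windows and in 3 of these 7, which belong to *Acta2*, *Smtn* and *Cald1*. The E-box CANNTG, which myogenic factors bind, was found in 72.3% of all windows and in all 7. These matches describe letters in a window and are not evidence of binding.

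Each table was normalized on its own, and values are given as CPM, counts scaled to library size with TMM factors, or as TPM, which also divides by transcript length, where genes of different length are compared. Libraries of the first table held 17883417 to 24663079 counts and those of the second 19801909 to 37790358 counts. A gene at or under 3 counts in a library, equal to 0.0791 to 0.165 CPM at these depths, is treated as not detected there. Replicate libraries were not copies of each other: their counts differed beyond sampling noise in each of the 8 pairs, the chi-square being 29.4 to 107 times its degrees of freedom. The labels do not say whether replicates are separate cultures, so the p-values below measure the spread between these libraries, which may be technical or, for AMPK-KO, a difference between edited lines.

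The edited genes were read first. In CPM, *Prkaa1* (AMPK α1) stood at 158.5 and 158.6 in WT against 79.7 and 78.0 in AMPK-KO myoblasts (d0), then at 126 and 125 against 83.3 and 82.5 at d8. *Prkaa2* (AMPK α2) stood at 1.69 and 1.79 against 0.209 and 0.421 at d0, and at 6.22 and 10.1 against 1.26 and 0.826 at d8. Both were lower in each AMPK-KO library than in each WT library of that day. In the second table *Prkaa1* averaged 91.4 CPM in TET2-WT and 76.0 CPM in TET2-S97E cells, and *Prkaa2* averaged 1.12 and 0.896 CPM. *Prkaa2* ran from 0.454 CPM in TET2-S97E clone 1 replicate 1 to 1.73 CPM in clone 2 replicate 2. That highest value lies at the level of the WT libraries of d0, a comparison across tables that was not tested. *Tet2* stood at 34.3, 22.5, 58.4 and 56.4 CPM in the TET2-WT libraries and at 12.9, 22.0, 7.88 and 22.1 CPM in the TET2-S97E libraries, without overlap, a difference that did not pass the test (adjusted p = 0.0621), and neither the tag nor the substitution can be read from counts per gene.

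By level per length, *Acta2*, which encodes smooth muscle α-actin, led the 10 genes in 14 of the 16 libraries. Its median was 2379 TPM, with a range of 553 to 4351 TPM. *Cnn2*, a calponin found in many non-muscle cells, had a median of 709 TPM (307 to 1104) and ranked first in the remaining 2 libraries, which were both of TET2-WT clone 1. *Cald1* (caldesmon) had rank 3 in every library, with a median of 240.4 TPM and a range of 140.0 to 429.7 TPM. The ranges of *Acta2* and *Cnn2* overlapped, as did those of *Cnn2* and *Cald1*, although within each library *Cald1* lay below *Cnn2*. The 10 genes together took 0.171 to 0.455% of the counts of a library.

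The lower ranks were less orderly. *Smtn* (smoothelin) varied least, from 44.3 to 84.1 TPM around a median of 56.8 TPM. *Myl9*, the regulatory light chain of smooth muscle myosin, had a median of 20.99 TPM and ran from 2.496 to 209 TPM. *Actg2*, smooth muscle γ-actin, had a median of 15.3 TPM and ran from 0 to 218 TPM. These 3 genes exchanged ranks 4 to 6 between libraries, and *Actg2* ranked as low as 8. Their order also differed between replicates of the same group, such as WT at d0.

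*Myocd*, *Myh11* and *Cnn1* were close to or below detection in most libraries, whereas *Smtn* was at or above 44.3 TPM in each and *Actg2* reached 218 TPM. *Myocd* had 1 and 6 counts in the WT libraries of d0 and 0 counts in the other 14. *Myh11*, the smooth muscle myosin heavy chain, had 0 to 6 counts in 14 libraries and 16 and 10 counts in those of TET2-S97E clone 2. Neither gene passed the filter on low counts in any comparison, and their medians were 0 TPM for *Myocd* and 0.0279 TPM for *Myh11*. *Cnn1*, the calponin of differentiated smooth muscle, reached 117 and 42 counts in WT cells at d0, and elsewhere stood between 0 and 18 counts. A high *Acta2* level was thus measured without detectable myocardin transcripts at this depth in 15 of the 16 libraries, the other being WT d0 replicate 2 with 6 counts.

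*Tagln* (transgelin or SM22α), which binds actin and is an abundant transcript of smooth muscle, was counted at only 6 to 101 reads per library, or 0.291 to 7.46 TPM. The gene lies on the minus strand of chromosome 9 (45929619 to 45936058), and 62.4% of its exonic bases are also exonic in *Gm48529*, an antisense gene on the opposite strand, with a further 5.43% shared with *Pcsk7*, again in antisense. *Gm48529* itself had 6 to 26 counts and *Pcsk7* 536 to 1109 counts per library. Without a statement of strand or of how reads over several genes were counted, reads from *Tagln* and these partners cannot be told apart, and the effect of this on the level of *Tagln* was not tested. The same holds for the 16.3% of *Smtn* exonic bases shared with *Gm11946*. Shared sequence was a smaller concern: no stretch of 150 bases of any member transcript occurred in a transcript of another gene, and stretches of 50 bases were shared by 0.326% of those of *Acta2*, with *Actg1* and its pseudogenes, and by none of those of *Actg2* and *Myl9*.

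**Figure D1:**
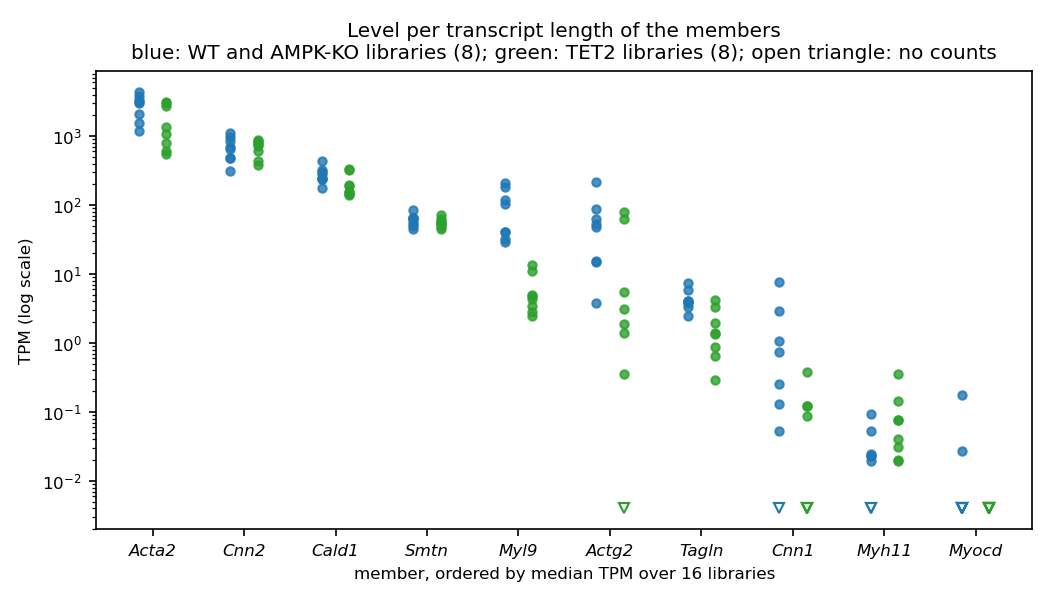
TPM of each gene in the 16 libraries on a log scale, ordered by the median, with the 8 WT and AMPK-KO libraries in blue, the 8 TET2 libraries in green and open triangles for libraries with no counts. *Acta2*, *Cnn2* and *Cald1* stay at or above 140.0 TPM throughout, *Myl9*, *Actg2* and *Cnn1* spread widely, and *Myh11* and *Myocd* reach at most 0.350 and 0.175 TPM.

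Markers of other cell types were read beside these levels. All 12 skeletal muscle markers were above 3 counts in 15 of the 16 libraries, and 10 of the 12 in AMPK-KO replicate 2 at d0. Some markers of each list below also passed this cut-off in every library, so it shows detection and not identity. The summed level of the 12 skeletal muscle markers ran from 1281 to 14397 CPM, with *Des* (desmin) or *Acta1* (skeletal α-actin) the most abundant. The 5 endothelial markers summed to 1.21 to 13.0 CPM, with *Tek* the most abundant in all but 1 library, where *Cdh5* was. The 4 macrophage and leukocyte markers summed to 1.41 to 7.87 CPM, mostly *Cd68*, with *Adgre1* at 0 in all libraries and *Ptprc* at or under 3 counts. Of the 8 pericyte and mural markers, 4 to 6 were above 3 counts in a library, with *Pdgfrb* or *Notch3* the most abundant and *Kcnj8* at or under 3 counts in all 16. The 7 fibroblast and fibro-adipogenic markers summed to 30.7 to 1940 CPM and varied with genotype, as given below.

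*Acta2* differed widely between replicates. In the order replicate 1 and replicate 2, its level was 2327 and 749.9 CPM in WT and 2162 and 952 CPM in AMPK-KO cells at d0. At d8 it was 1886 and 1232 CPM in WT and 2656 and 1866 CPM in AMPK-KO cells. Replicate 1 was the higher library in each of the 4 groups of the first table, and the genotypes overlapped on both days. *Cnn2* and *Cald1* were also higher in replicate 1 in all 4 groups, while *Myl9* and *Smtn* were higher there in 1 of the 4. *Cnn2* and *Cald1* are broadly expressed partners of actin filaments.

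**Figure D2:**
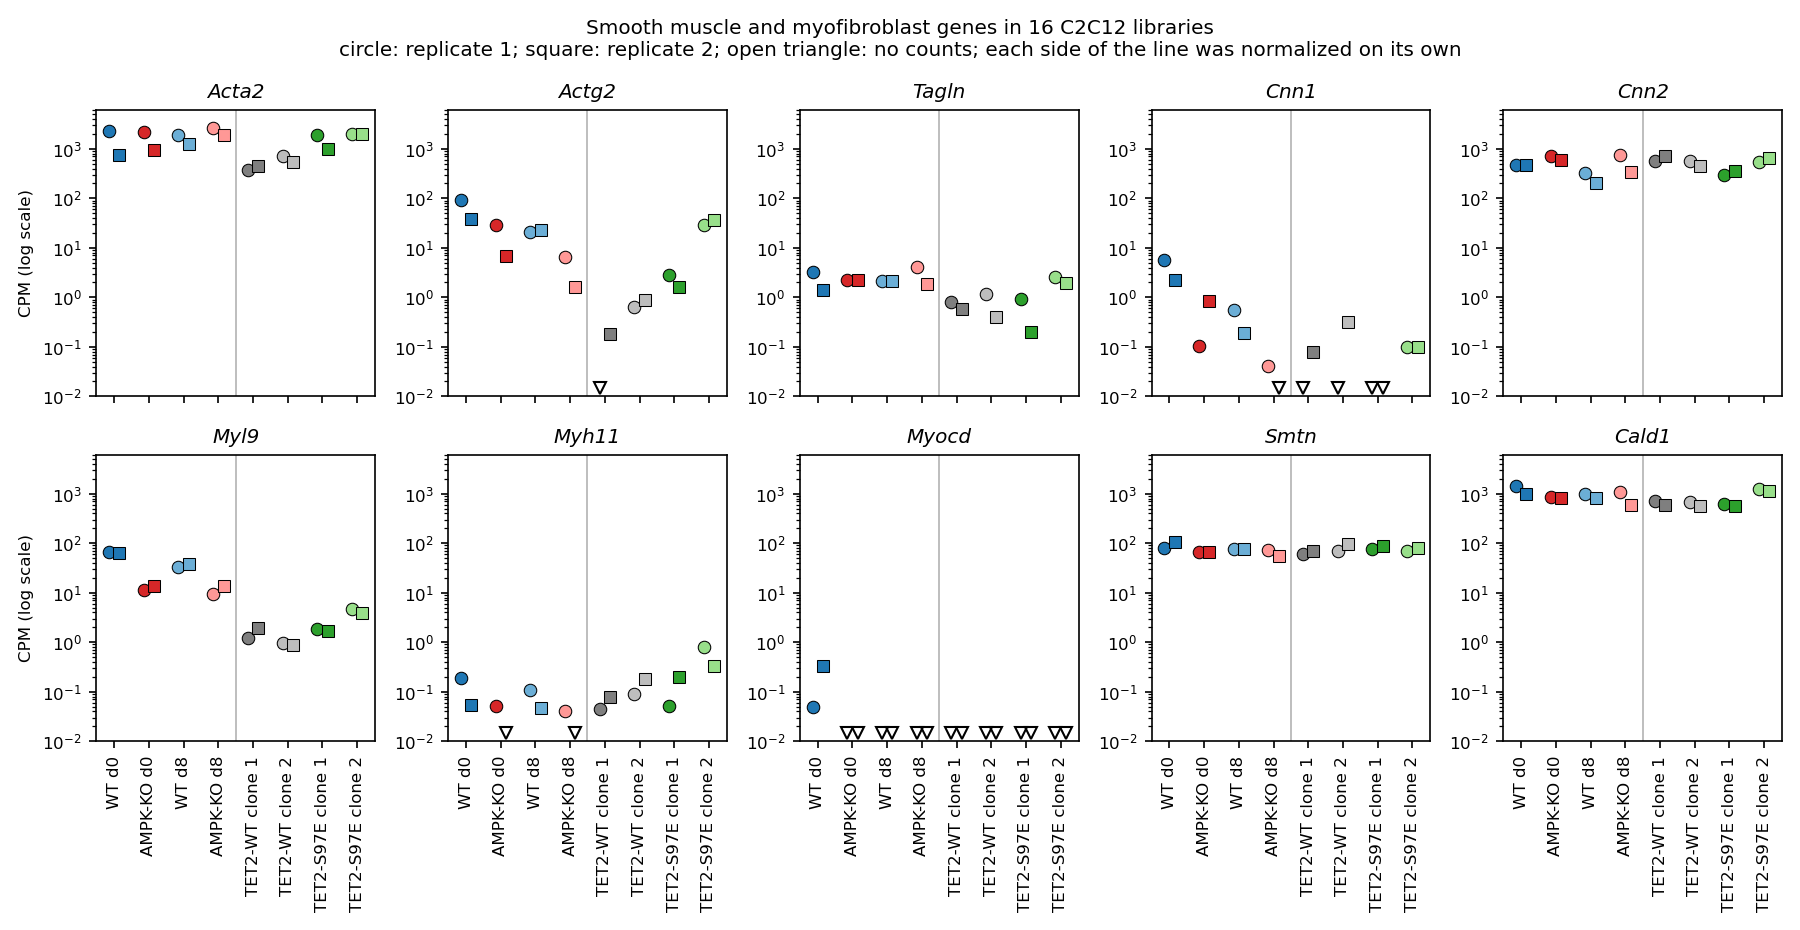
CPM of each gene in every library on a log scale, with circles for replicate 1, squares for replicate 2 and open triangles for libraries with no counts. On the left of the line, *Myl9* is lower in each AMPK-KO library than in each WT library of that day. *Actg2*, *Cnn1* and *Smtn* lie lower and *Cnn2* higher in the same way, without passing edgeR's test. The share of all genes separated like this was not computed. On the right of the line, *Acta2* and *Actg2* separate TET2-S97E from TET2-WT libraries.

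The first question was how the genes differed between AMPK-KO and WT myoblasts at d0. *Myl9* (chromosome 2, 156775420 to 156781658, plus strand) was the only gene of the 8 tested that passed, and it was lower in AMPK-KO cells. Its level was 66.4 and 62.0 CPM in WT and 11.3 and 13.4 CPM in AMPK-KO libraries. The replicates lay close together and far from the other genotype: 64.2 ± 3.10 against 12.3 ± 1.46 CPM (SD, n = 2 each), 5.20-fold lower. In edgeR's quasi-likelihood fit this was −2.38 on the log2 scale with a standard error of 0.236 and a Benjamini-Hochberg adjusted p of 0.00842. The test called 2.83% of all 14329 genes tested lower and 0.698% higher, against 1 and 0 of the 8 members. Over all genes, the 405 lower and 100 higher calls became 13 and 4 without AMPK-KO replicate 1 of d0 and 39 and 7 without replicate 2. Which of the list genes named below kept their call in these fits was not examined. Leaving out AMPK-KO replicate 1 or 2 of d0 raised the adjusted p of *Myl9* to 0.0727 and 0.0562 at log2 fold changes of −2.27 and −2.53.

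*Actg2* and *Cnn1* were lower in both AMPK-KO libraries without passing. *Actg2* stood at 93.1 and 39.1 CPM in WT and at 29.0 and 6.87 CPM in AMPK-KO myoblasts, without overlap (log2 fold change −1.88, standard error 0.811, adjusted p = 0.245). *Cnn1* stood at 5.64 and 2.28 CPM in WT and at 0.105 and 0.842 CPM in AMPK-KO myoblasts (−3.03, standard error 0.972, adjusted p = 0.143). DESeq2 called *Cnn1* (adjusted p = 0.0490) and not *Actg2* (0.0586), and edgeR without a filter on low counts called both (0.000210 for *Cnn1* and 4.16e-09 for *Actg2*). *Smtn* (−0.47, adjusted p = 0.235), *Cald1* (−0.50, 0.428) and *Cnn2* (0.48, 0.537) gave smaller values. *Acta2* (0.02, standard error 0.586) and *Tagln* (−0.04, standard error 0.534) had estimates near 0, with errors larger than the estimates, and with 1 library left out they ranged from −0.70 to 1.04 and from −0.50 to 0.68. The median log2 fold change of the 8 tested members was −0.49, beside −0.001 for all genes tested. DESeq2 was run without edgeR's filter on low counts, although its adjusted p-values pass through its own filter on mean count. Its median log2 fold change of −1.19 is over all 10 members, *Myh11* and *Myocd* included. The 2 medians are therefore not over the same genes.

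Other genes of the contractile and signalling lists were mixed at d0. Of 18 tested further contractile and adhesion genes, 1 was called higher, *Mylk* (the kinase that phosphorylates myosin light chains, 2.13 to 17.5 CPM, log2 fold change 3.04, adjusted p = 0.00842), and 1 lower, *Pdlim3* (104 to 5.05 CPM, −4.36, adjusted p = 0.00871). The light chain gene and the gene of its kinase therefore differed in opposite directions in the same libraries. Of the 13 SRF cofactors and regulators, 1 passed, *Klf4* (a repressor of smooth muscle genes in vascular cells, 195 to 30.9 CPM, −2.66, adjusted p = 0.0216), and *Srf* itself did not (0.08, adjusted p = 0.950). None of the 16 TGF-β signalling genes passed, the lowest adjusted p being 0.204 for *Smad2*. Of 15 tested myofibroblast matrix genes, *Tnc* (tenascin C, −2.06, adjusted p = 0.0190) and *Fap* (adjusted p = 0.0129) were lower. *Fap* averaged below detection in AMPK-KO cells at d0, so no exact fold change is given for it.

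Markers of the other cell types also differed at d0. Of the 12 skeletal muscle markers 3 were lower in AMPK-KO cells, *Myog* (−5.36, adjusted p = 0.0116), *Myod1* (−3.29, 0.0147) and *Mymk* (−5.64, 0.0331), and their summed level was 2370 and 3363 CPM in WT against 1514 and 1936 CPM in AMPK-KO libraries. The fibroblast and fibro-adipogenic markers summed to 372 and 233 CPM against 30.7 and 36.6 CPM, mostly through *Ly6a* (Sca-1, 258 to 2.71 CPM, −6.58, adjusted p = 0.0470), the only 1 of 5 tested that passed. In bulk libraries, fewer cells of a type and less RNA per cell cannot be told apart. The part of these marker differences in the lower *Myl9* was not tested.

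At d8 the same single gene passed. *Myl9* stood at 32.5 and 38.0 CPM in WT and at 9.26 and 13.5 CPM in AMPK-KO libraries, again without overlap. The means were 35.2 ± 3.86 against 11.4 ± 3.001 CPM (SD, n = 2 each), 3.10-fold lower (log2 fold change −1.63, standard error 0.231, adjusted p = 0.0140). Among all genes tested 3.98% were called lower and 1.36% higher at d8, against 1 and 0 of the 8 members. These 571 lower and 195 higher calls became 99 and 9 without WT replicate 1 of d8, 100 and 7 without replicate 2, and 180 and 53 without AMPK-KO replicate 1, and the list genes named below were not followed in these fits. The comparisons at d0 and d8 use different libraries of the same 2 genotypes. Leaving out WT replicate 1 or 2 of d8 or AMPK-KO replicate 1 of d8 raised the adjusted p to 0.0678, 0.0907 and 0.0576, the direction being kept.

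*Actg2* was again low in AMPK-KO cells at d8, at 6.53 and 1.65 CPM against 20.4 and 22.8 CPM in WT, a value of −2.39 on the log2 scale (standard error 0.845) with an adjusted p of 0.153. DESeq2 gave an adjusted p of 0.00713 for this gene, and the edgeR fit with a replicate block one of 0.0398. *Cnn2* went the other way, with 755 and 335 CPM in AMPK-KO and 325 and 206 CPM in WT libraries (1.04, standard error 0.391, adjusted p = 0.175, or 0.0881 with a replicate block), and the AMPK-KO replicates themselves lay far apart. *Acta2* (0.54, adjusted p = 0.633), *Tagln* (0.50, 0.622), *Smtn* (−0.27, 0.459) and *Cald1* (−0.09, 0.895) did not pass. *Cnn1* was at 1 and 0 counts in AMPK-KO and at 10 and 4 counts in WT cells, too few for a firm statement (adjusted p = 0.206). The median log2 fold change of the 8 tested members was −0.18, beside 0.04 for all genes, but it was −0.51 without AMPK-KO replicate 1 of d8 and 0.05 without replicate 2.

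Among the wider lists at d8, *Pgm5* (an adhesion plaque protein of muscle, 109 to 11.9 CPM, −3.19, adjusted p = 0.0111) and *Itga1* (adjusted p = 0.0423) were lower of 18 further contractile and adhesion genes, and none was higher. *Itga1* averaged 1.30 CPM in WT and 0.0204 CPM, below detection, in AMPK-KO cells, so no exact fold change is given. *Klf4* was lower here too (−1.88, adjusted p = 0.0448), the only 1 of 13 SRF cofactors and regulators to pass. *Tgfb2* was the only TGF-β gene of 16 to pass (−1.82, adjusted p = 0.0413). Of 15 matrix genes 3 were lower, *Col1a1* (949 to 55.1 CPM, −4.11, adjusted p = 0.0223), *Tnc* (−1.79, 0.0235) and *Fap* (−2.96, 0.0328). Of the paralogues, *Myl6*, the essential light chain of smooth and non-muscle myosin, was higher (442 to 792 CPM, 0.84, adjusted p = 0.0392) and *Myl12b*, a regulatory light chain of non-muscle myosin, was lower (159 to 81.4 CPM, −0.97, adjusted p = 0.0471). None of the 12 skeletal muscle markers passed at d8, and 1 of 5 fibroblast markers did, *Lum* (−3.98, adjusted p = 0.0401). The skeletal markers summed to 9693 and 12297 CPM in WT but to 3874 and 14397 CPM in AMPK-KO libraries, which lay far apart. Their estimates were negative for 9 and positive for 3. The fibroblast markers summed to 1311 and 1940 CPM in WT against 298 and 436 CPM. The part of these marker differences in the lower *Myl9* of AMPK-KO cells was not tested.

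**Figure D3:**
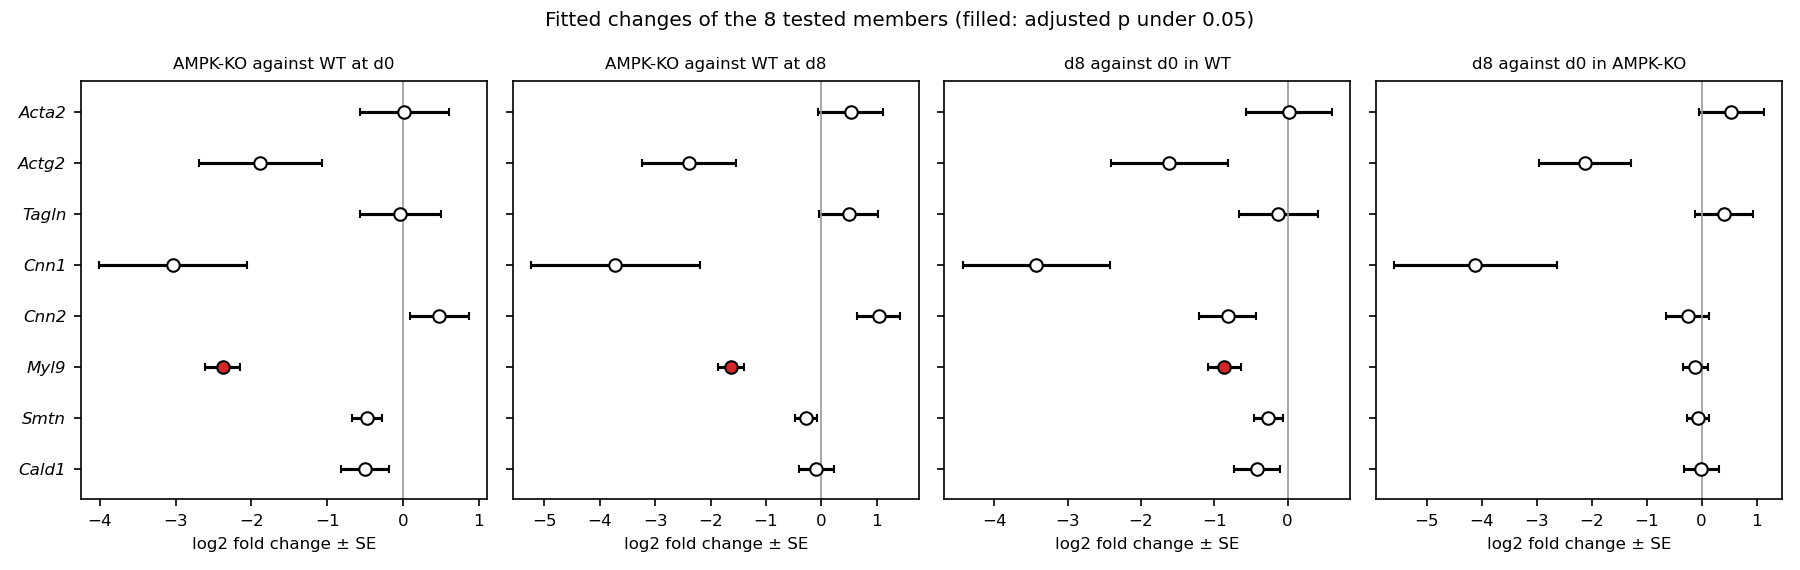
Log2 fold change with its standard error for the 8 tested genes in the 4 comparisons of the first table, filled where the adjusted p was under 0.05. *Myl9* is the only filled point, at −2.38, −1.63 and −0.87 in 3 of the 4 panels, and *Cnn1* lies further left with a wider error in each.

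The second question was what happened to the genes over differentiation. In WT cells the skeletal α-actin gene *Acta1* rose from 54.6 to 3315 CPM (log2 fold change 5.92, adjusted p = 0.0182), while *Acta2* averaged 1539 ± 1115 CPM at d0 and 1559 ± 462 CPM at d8 (SD, n = 2 each; 0.02, standard error 0.586, adjusted p = 0.989; −0.56 to 1.04 with 1 library left out). *Myl9* fell by 0.87 on the log2 scale (standard error 0.224, adjusted p = 0.0489), from 64.2 to 35.2 CPM, 1.82-fold. It was the only 1 of 8 members called, beside 6.58% of all genes called lower and 5.78% higher. This call is at the edge of the threshold: it was lost in 6 of the 8 fits that left out 1 library, with adjusted p-values of 0.0964 and 0.160 without WT d0 replicate 1 and 2, 0.214 and 0.181 without WT d8 replicate 1 and 2, and 0.0752 and 0.0677 without AMPK-KO d0 replicate 1 and 2.

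*Cnn1* had the largest estimated decrease over WT differentiation, from 117 and 42 counts to 10 and 4 (−3.43, standard error 1.00, adjusted p = 0.0677), and DESeq2 called it with an adjusted p of 0.0137. *Actg2* stood at 93.1 and 39.1 CPM at d0 and at 20.4 and 22.8 CPM at d8 (−1.61, adjusted p = 0.221). *Cnn2* (−0.82, adjusted p = 0.204), *Cald1* (−0.42, 0.416), *Smtn* (−0.27, 0.407) and *Tagln* (−0.13, 0.900) also had negative estimates that did not pass. The median of the 8 was −0.62, beside 0.01 for all genes tested, and −0.38 over the members with at least 10 counts in every library.

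In AMPK-KO cells none of the 8 tested members passed between d0 and d8, where 4.95% of all genes were called lower and 4.81% higher. An unadjusted p under 0.05 was reached by 2 of the 8, *Cnn1* (adjusted p = 0.124) and *Actg2* (−2.12, adjusted p = 0.153). *Cnn1*, at 1 and 0 counts at d8, was at least 3.5-fold lower. DESeq2 called 1, *Actg2*, with an adjusted p of 0.0161. *Myl9*, already low at d0, stood at 11.3 and 13.4 CPM and then at 9.26 and 13.5 CPM (−0.12, standard error 0.228, adjusted p = 0.770). *Acta2* gave 0.54 (adjusted p = 0.583), *Tagln* 0.41 (0.648), *Cnn2* −0.26 (0.7003), *Smtn* −0.06 (0.864) and *Cald1* −0.01 (0.998). The skeletal gene *Acta1* rose from 7.75 to 3763 CPM in the same libraries (8.93, adjusted p = 0.0209).

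Whether the change over differentiation differed between the genotypes was tested directly. No gene of 14329 passed in either direction, 0% higher and 0% lower, by edgeR, although 729 had an unadjusted p under 0.05 and DESeq2 called 26 higher and 31 lower. None of the members was called by either tool, and none had an unadjusted p under 0.05. *Myl9* came nearest, with a difference of 0.75 on the log2 scale between its changes (standard error 0.319, unadjusted p = 0.0508, adjusted p = 0.984). The changes of *Myl9* in WT and in AMPK-KO cells are therefore not shown to differ.

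The list calls over differentiation depend on single libraries. In WT, where 828 genes were called higher and 943 lower, edgeR called none without WT d0 replicate 2 or WT d8 replicate 2 (2971 and 2749 had an unadjusted p under 0.05) and 2 higher and 0 lower without WT d8 replicate 1. In AMPK-KO cells, where 689 were called higher and 709 lower, it called none without AMPK-KO d0 replicate 1 (2608 at an unadjusted p under 0.05) and 0 higher and 1 lower without replicate 2. Each rise and fall in WT named here, and each rise in AMPK-KO cells, is thus lost in at least 1 of these fits, that of *Acta1* included. With all libraries, of the 18 further contractile and adhesion genes, 6 rose and 2 fell in WT and 6 rose and none fell in AMPK-KO cells. Among the risers in WT were *Pgm5* (1.15 to 109 CPM, 6.56, adjusted p = 0.0106), *Mylk* (3.25, 0.0135), *Synpo2* (2.76, 0.0156) and *Ppp1r12b* (a myosin phosphatase subunit, 2.28, 0.0156). By adjusted p, *Pgm5*, *Pdlim3*, *Nexn* and *Synpo2* came first in AMPK-KO cells, with log2 fold changes of 4.71, 4.11, 1.09 and 1.93. Of the 12 skeletal muscle markers 7 rose in WT and 8 in AMPK-KO cells, and their summed level reached 9693 and 12297 CPM in WT and 3874 and 14397 CPM in AMPK-KO libraries at d8. Several genes of the contractile list are also expressed in skeletal muscle, so these 2 sets are not independent. The fibroblast and fibro-adipogenic markers moved with differentiation as well. Their summed level was 372 and 233 CPM at d0 and 1311 and 1940 CPM at d8 in WT, and 30.7 and 36.6 CPM and then 298 and 436 CPM in AMPK-KO cells. Of 5 tested, 3 rose in WT, *Dcn* (decorin, 25.1 to 1123 CPM, 5.48, adjusted p = 0.0143), *Lum* (5.69, 0.0156) and *Pi16* (4.01, 0.0219), and 1 in AMPK-KO cells, *Dcn* (4.93, 0.0193). Of 15 matrix genes 3 rose in WT, *Col3a1* (1.65, adjusted p = 0.0306), *Fbn1* (1.86, 0.0361) and *Postn* (4.83, 0.0425), and 2 in AMPK-KO cells, *Fn1* (1.35, 0.0284) and *Fap* (adjusted p = 0.0394), which averaged 0.0262 CPM at d0, below detection, and 0.467 CPM at d8. None fell. The part of these marker changes in the lower *Myl9* at d8 was not tested. Among the paralogues *Myh10*, *Myl6* and *Tagln2* fell in WT by 1.04, 0.87 and 1.53 on the log2 scale.

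The TET2 libraries asked whether the phospho-mimicking substitution changed expression in AMPK-null myoblasts. *Acta2* (chromosome 19, 34241090 to 34255590, minus strand) was higher in TET2-S97E cells. Its level was 371 and 446 CPM in TET2-WT clone 1 and 699.8 and 540.3 CPM in clone 2, and 1938 and 1013 CPM in TET2-S97E clone 1 and 2027 and 2031 CPM in clone 2. Each TET2-S97E library lay above each TET2-WT library, with means of 1752 ± 495 against 514 ± 142 CPM (SD, n = 4 each), 3.41-fold (log2 fold change 1.77, standard error 0.272, adjusted p = 0.00873). *Actg2* (chromosome 6, 83512905 to 83536265, minus strand) was the other gene of the 7 tested that passed, and it was also higher. It had 0, 7, 14 and 25 counts in the TET2-WT libraries, and in TET2-S97E cells 56 and 50 counts in clone 1 and 584 and 1124 counts in clone 2. The means were 17.7 ± 18.1 against 0.429 ± 0.409 CPM (SD, n = 4 each), with an estimate of 5.36 on the log2 scale (standard error 1.21, adjusted p = 0.0309). The test called 3.71% of 13433 genes higher and 3.28% lower, against 2 and 0 of the 7 members. These 498 higher and 440 lower calls became 178 and 137 or 218 and 194 without TET2-WT clone 1 replicate 1 or 2, 163 and 141 or 601 and 491 without TET2-WT clone 2 replicate 1 or 2, and 265 and 170 without TET2-S97E clone 1 replicate 1.

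These p-values treat replicates of a clone as independent. With counts summed per clone, 2 clones against 2, the adjusted p was 0.280 for *Acta2* and 0.366 for *Actg2*, at log2 fold changes of 1.70 and 5.31. With a random effect of clone in limma-voom it was 0.0359 for *Acta2* and 0.275 for *Actg2*. Without TET2-S97E clone 2 the log2 fold change was 1.51 for *Acta2* (adjusted p = 0.0231) and 2.35 for *Actg2* (0.181), so the *Actg2* estimate was much smaller without that clone. Without TET2-WT clone 1 the values were 1.498 (0.0801) and 4.51 (0.173), and without TET2-WT clone 2 they were 2.09 (0.0234) and 7.25 (0.0736). *Actg2* also lost its call without TET2-WT clone 1 replicate 1 or 2 (0.0777 and 0.0946), TET2-WT clone 2 replicate 1 (0.0863) or TET2-S97E clone 2 replicate 1 or 2 (0.0561 and 0.0558), whereas *Acta2* kept it in each of the 8 such fits.

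None of the other 5 tested members passed between the TET2 genotypes. *Myl9* stood at 1.22, 1.95, 0.962 and 0.891 CPM in TET2-WT and at 1.82, 1.69, 4.69 and 3.86 CPM in TET2-S97E libraries, which overlapped (1.25, standard error 0.431, adjusted p = 0.117), and DESeq2 gave an adjusted p of 0.0412. *Tagln* (0.93, adjusted p = 0.453), *Cald1* (0.48, 0.312), *Cnn2* (−0.32, 0.473) and *Smtn* (0.11, 0.741) did not pass, and *Cnn1*, *Myh11* and *Myocd* were not tested. The median of the 7 was 0.93, beside 0.01 for all genes tested, but it was 0.45 without TET2-S97E clone 2 replicate 1, 0.17 without TET2-S97E clone 2, 1.59 without TET2-S97E clone 1 and 0.46 with a random effect of clone. Set beside the AMPK-KO myoblasts of the first table, at 11.3 and 13.4 CPM, the 4 TET2-WT libraries held *Myl9* at 0.891 to 1.95 CPM on the same AMPK-null background. In those AMPK-KO myoblasts *Acta2* stood at 2162 and 952 CPM, beside means of 514 CPM in TET2-WT and 1752 CPM in TET2-S97E libraries. *Actg2* stood there at 29.0 and 6.87 CPM, beside means of 0.429 and 17.7 CPM. The tables were normalized separately, so these distances were not tested.

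Clones of the same genotype differed as well. TET2-S97E clone 2 was above clone 1 for *Actg2*, at 29.5 and 36.7 CPM against 2.82 and 1.63 CPM (log2 fold change 3.92, standard error 0.449, adjusted p = 0.00188), a call that held in all 13 alternatives. *Cald1* (chromosome 6, 34598500 to 34775473, plus strand) stood at 1234 and 1152 CPM in clone 2 and at 610.0 and 569.5 CPM in clone 1, 2.02-fold (1.02, standard error 0.177, adjusted p = 0.0110). *Cnn2* (chromosome 10, 79988584 to 79996062, plus strand) stood at 536 and 638 against 303 and 362 CPM, 1.77-fold (0.82, standard error 0.198, adjusted p = 0.0421). These were 3 of 7 members higher and 0 lower, beside 3.35% higher and 2.82% lower of 14459 genes tested. These 484 higher and 408 lower calls became 225 and 278 without TET2-S97E clone 1 replicate 2, 275 and 213 without its replicate 1, 291 and 289 or 335 and 209 without TET2-S97E clone 2 replicate 1 or 2, 262 and 214 or 263 and 209 without TET2-WT clone 1 replicate 1 or 2, and 216 and 191 with only the TET2-S97E libraries in the fit. The adjusted p of *Cald1* was 0.0604 and 0.0699 without clone 1 replicate 1 or 2 and 0.0617 without clone 2 replicate 1. That of *Cnn2* was 0.231 and 0.0898 without clone 1 replicate 1 or 2, 0.0804 and 0.178 without clone 2 replicate 1 or 2, and 0.0818 and 0.0810 without TET2-WT clone 1 replicate 1 or 2. With only the TET2-S97E libraries in the fit it was 0.0808.

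*Myl9* (1.29, adjusted p = 0.0892) and *Tagln* (2.07, 0.163) were also higher in each library of TET2-S97E clone 2 than in each of clone 1 without passing, and *Acta2* gave 0.46 (0.443) and *Smtn* −0.12 (0.820). With a replicate block *Tagln* passed (2.25, adjusted p = 0.0361), in a fit that called 803 genes higher and 737 lower. *Myh11*, at 16 and 10 counts in clone 2, had 1 and 6 counts in clone 1. The median of the 7 tested members was 1.02, beside 0.03 for all genes. Between the TET2-WT clones none of the 7 passed, where 0.463% of 14459 genes were called higher and 0.394% lower in clone 2. With only the TET2-WT libraries in the fit, 646 of 13587 genes were called higher and 339 lower. A replicate block gave 360 higher and 317 lower, and 0 members were called in either fit. An unadjusted p under 0.05 was reached by 1 of the 7, *Actg2*, with 14 and 25 against 0 and 7 counts (2.72, standard error 0.691, adjusted p = 0.105), which DESeq2 called (adjusted p = 0.00285). The contrast of genotypes and the contrast of the TET2-S97E clones share libraries, so their values for *Actg2* are not separate evidence.

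**Figure D4:**
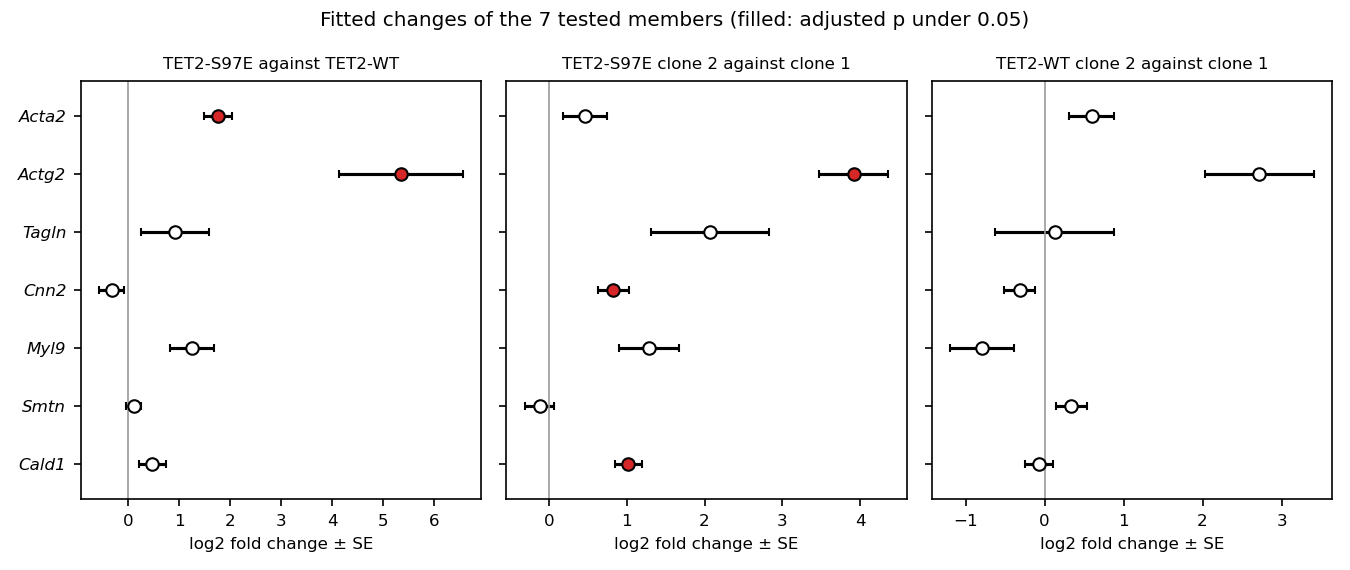
Log2 fold change with its standard error for the 7 genes tested in the TET2 table, filled where the adjusted p was under 0.05. *Acta2* and *Actg2* are filled between the genotypes at 1.77 and 5.36, *Actg2*, *Cald1* and *Cnn2* between the TET2-S97E clones at 3.92, 1.02 and 0.82, and no gene between the TET2-WT clones.

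Some further smooth muscle and SRF-related genes were called higher in TET2-S97E cells when replicates of a clone were treated as independent. With counts summed per clone, edgeR called no gene of 15126 in this comparison (1575 had an unadjusted p under 0.05), so each list call here and in the next paragraph was lost, and with a random effect of clone limma-voom called 91 genes higher and 75 lower. Of 16 further contractile and adhesion genes, 3 were higher and none lower: *Lmod1* (leiomodin 1, an actin nucleator of smooth muscle, 1.78 to 25.5 CPM, 3.85, adjusted p = 0.0282), *Synpo2* (1.87, 0.00547) and *Tpm1* (tropomyosin 1, 729 to 1536 CPM, 1.08, 0.0224). Of 12 SRF cofactors and regulators, *Elk1* (0.58, adjusted p = 0.0139) and *Csrp1* (0.75, 0.0209) were higher and *Srf* had 0.39 (0.114). None of 16 TGF-β genes and none of 13 matrix genes passed, the lowest adjusted p being 0.0628 for *Smad2* and 0.0716 for *Postn*. Of the striated muscle actins listed as paralogues, *Acta1* (32.7 to 1331 CPM, 5.34, adjusted p = 0.0487) and *Actc1* (0.146 to 1.73 CPM, 3.57, 0.0160) were higher too.

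The skeletal muscle markers moved with this contrast in the fit that ignores clone. Of 12 tested, 6 were called higher and none lower in TET2-S97E cells, and none was called with counts summed per clone. The 6 included *Mymk* (1.93 to 113 CPM, 5.86, adjusted p = 0.00832) and *Myog* (4.26 to 105 CPM, 4.61, 0.0307). Their summed level was 1281, 1583, 1296 and 1722 CPM in the TET2-WT libraries, 9753 and 5227 CPM in TET2-S97E clone 1 and 3198 and 1551 CPM in clone 2. Clone 2, with the higher *Actg2*, *Cald1* and *Cnn2*, was thus the clone with the lower skeletal marker level. Of 5 tested pericyte and mural markers, *Rgs5* was called lower (38.0 to 2.19 CPM, −4.12, adjusted p = 0.00492), and the other 4 had positive estimates that did not pass, *Cspg4* (1.28, 0.118), *Pdgfrb* (0.56, 0.146), *Mcam* (0.64, 0.514) and *Notch3* (0.22, 0.685). Of 2 tested endothelial markers *Tek* was called lower (4.18 to 1.10 CPM, −1.93, 0.0326). The part of these marker differences in the higher *Acta2* and *Actg2* was not tested.

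Between the TET2-S97E clones, calls among skeletal muscle markers went one way and those among TGF-β, matrix and fibroblast genes the other. The list genes named here were not followed in the fits that left out a library. Of 12 skeletal muscle markers 5 were lower in clone 2 and none higher, including *Myod1* (146 to 28.3 CPM, −2.36, adjusted p = 0.00117), *Chrna1* (−1.59, 0.00308), *Cdh15* (−1.41, 0.00929) and *Des* (−1.59, 0.0140). Of the 16 tested TGF-β signalling genes, those called higher included *Ccn2* (33.4 to 456 CPM, 3.78, 0.00243), *Thbs1* (547 to 3014 CPM, 2.46, 0.00339) and *Ccn1* (1.93, 0.0302). *Ccn1* and *Ccn2* encode matricellular proteins that are targets of SRF and YAP as well as of TGF-β. Of 14 matrix genes 5 were higher, among them *Lox* (lysyl oxidase, 441 to 1380 CPM, 1.65, adjusted p = 0.00141), *Fbn1* (1.56, 0.00294), *Tnc* (2.43, 0.00308) and *Col5a1* (0.72, 0.0344). Of 5 tested fibroblast and fibro-adipogenic markers 3 were higher, *Pi16* (4.03, 0.00129), *Dcn* (1.92, 0.00402) and *Lum* (3.51, 0.00771), with a summed level of 347 and 277 CPM in clone 1 and 1180 and 713 CPM in clone 2.

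Contractile genes outside the 10 went both ways between these clones. Of 17 tested, *Itga8*, an integrin of smooth muscle and mesenchyme, was higher in clone 2 (5.66 CPM, adjusted p = 0.00281). Its mean of 0.0325 CPM in clone 1 was below detection, so no exact fold change is given. *Lmod1* (log2 fold change 2.43, adjusted p = 0.0255) and *Actn1* (0.64, 0.0382) were also higher, and *Pgm5* was lower (−2.32, 0.00784). Among 12 SRF cofactors and regulators *Fhl2* was higher (1.13, adjusted p = 0.0202), and *Srf* was not among those called. Calls over all genes between the TET2-WT clones rose from 67 higher and 57 lower to 646 and 339 with only their libraries in the fit. With a replicate block they were 360 and 317. In the main fit of this contrast, 3 matrix genes (*Fbn1*, *Postn* and *Col1a1*), the TGF-β gene *Tgfb2* and the skeletal marker *Myod1* were called higher in clone 2. Their log2 fold changes were 1.63, 3.69, 2.91, 1.82 and 1.32. The markers *Rgs5* (1.43) and *Lum* (2.88) were also higher there and *Ly6a* lower (−3.91). These calls were all lost without TET2-WT clone 1 replicate 2: the 67 higher and 57 lower calls over all genes became none without it (1071 at an unadjusted p under 0.05) and 2 and 0 without replicate 1.

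**Figure D5:**
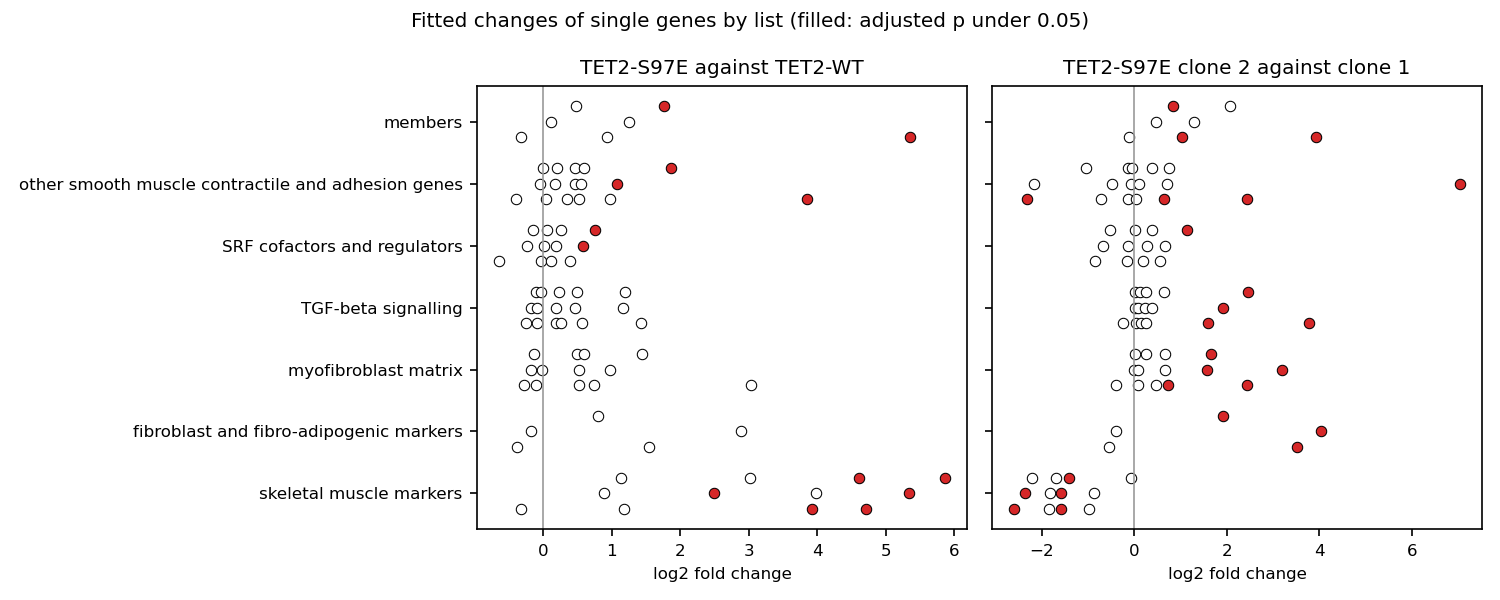
Log2 fold change of each tested gene of the members and of 6 lists, for TET2-S97E against TET2-WT (left) and TET2-S97E clone 2 against clone 1 (right), filled where the adjusted p was under 0.05. The called skeletal muscle markers are 6 above 0 on the left and 5 below 0 on the right, while the called members lie above 0 in both panels.

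The genes whose pattern over the 16 libraries was most like that of *Acta2* were sought among 10091 genes with a mean of at least 5 CPM in both tables, as a description. The closest was *Lmod1*, with a Pearson correlation of 0.94 on log2(CPM + 0.5) values centred within each table, 0.92 over the 8 libraries of the first table and 0.95 over the 8 of the second. *Lmod1* followed *Acta2* in being higher in replicate 1 at d0, with 9.16 and 1.19 CPM in WT and 5.91 and 0.795 CPM in AMPK-KO cells, and it ran from 0.633 to 3.30 CPM in TET2-WT and from 3.58 to 55.0 CPM in TET2-S97E libraries. Next came *mt-Nd2* (0.90), *Exoc8* (0.87), *Slc25a32* (0.86) and *Dip2b* (0.86). For *Tagln* the closest were *Msrb3* (0.87), *Wdr41* (0.84), *Naip2* (0.84), *Ids* (0.83) and *Erap1* (0.83), and *Tagln* rested on 6 to 101 counts. The 16 points share genotypes, clones and libraries and are not independent.

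Among the members themselves the pattern of *Acta2* was shared in part, with correlations computed in the same way. The highest coefficients of *Acta2* were 0.62 with *Tagln* and 0.59 with *Actg2*, against 0.49 with *Cald1*, 0.16 with *Myl9* and −0.05 with *Cnn2*. The closest pair of members was *Actg2* and *Cald1*, at 0.81 over the 16 libraries.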

How the data were processed

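RNA-seq of rRNA-depleted total RNA was deposited by the authors as 2 tables of raw counts per gene, not normalized, 1 column per library. Per the labels and methods, reads were handled with bcl2fastq 2.17, Trim Galore 0.4.5, STAR 2.5.3a (mm10) and featureCounts 1.5.3; strand and the treatment of reads over several genes are not given in the sources used here. Counts of each table were filtered by edgeR's filterByExpr, scaled by TMM and tested with edgeR 4.0.16 (glmQLFit, glmQLFTest; R 4.3.3), with all 4 groups or clones of a table in 1 fit, or genotype alone for TET2-S97E against TET2-WT, and with Benjamini-Hochberg adjustment over all genes tested (threshold 0.05). The procedure was tested on simulated counts without a clone effect, which cannot show how the test between the TET2 genotypes behaves when clones differ. DESeq2 1.42.0 and limma 3.58.1 served as alternatives, beside other scaling and filters, counts summed per clone, a replicate block, and leaving out each library or clone. Gene models came from GENCODE M21, which held 49326 of the 49585 identifiers, and TPM used merged exon lengths. Members and lists were chosen with earlier results of these data known. All 10 members are named. Of each list, at most 4 tested genes with the lowest adjusted p were named per comparison, called or not, with the most abundant gene of each marker list and the 5 genes most like *Acta2* and *Tagln*. *Srf* and any further gene named outside this rule were chosen after their values were seen. The result of 1 gene of the TGF-β list is not reported here.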

Additional observations from a re-analysis of the deposited data

Results flagged for a closer look

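Among the 4 TET2-S97E libraries, *Acta2* was at 1013 CPM in clone 1 replicate 2 and at 1938, 2027 and 2031 CPM in the others. The gap from this lowest library to the next made up 0.909 of the range of the group, above Dixon's critical value for 4 samples. This was the 1 group so marked of 24 groups of 4 examined, and a test at this level marks about that many by chance. Without this library the log2 fold change of *Acta2* between the TET2 genotypes was 1.96 (edgeR's adjusted p = 0.0108). The cause was not tested.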

How the results depend on the processing

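Of 868 values of the tested members under the alternatives, 822 kept their direction, and the 2 *Myl9* differences between AMPK-KO and WT kept it in each. DESeq2's Wald test called 2 members at d0 (*Cnn1*, *Myl9*), 2 at d8 (*Actg2*, *Myl9*), 2 over WT differentiation (*Cnn1*, *Myl9*), 1 over AMPK-KO differentiation and 1 between the TET2-WT clones (*Actg2* in both). In the same order it called 335 genes higher and 975 lower, 496 and 1073, 1335 and 1282, 1285 and 1108, and 510 and 379. No share is given, because the number of genes with an adjusted p was not recorded. Of the 49585 genes entered, 25084 of the first table and 25592 of the second had any counts. With no filter on low counts the members called were 3, 4, 4, 2 and 2, again in that order. Calls over all genes rose as well: 573 higher and 1453 lower, 833 and 1670, 1816 and 1477, and 1717 and 1322 of 25084 genes. Between the TET2-WT clones they were 1101 and 526 of 25592. Over WT differentiation 0 were called with DESeq2's size factors (*Myl9*, adjusted p = 0.0528) or with at least 10 counts in every library (0.0519). For TET2-S97E against TET2-WT, 1 member was called with at least 10 counts in every library, 0 with counts summed per clone and 1 in limma-voom with a random effect of clone. Leaving out TET2-WT clone 1 or 2 gave 0 and 1, and leaving out TET2-S97E clone 1 or 2 gave 4 and 1. Over all genes these last 4 fits called 100 higher and 83 lower of 14224, 319 and 306 of 14235, 484 and 316 of 14206, and 687 and 499 of 14091. Without TET2-S97E clone 2 *Cald1* turned to −0.12 (adjusted p = 0.757). *Tagln* was reversed in 1 of 18 alternatives, at −0.45, and *Cnn2* and *Smtn* in 1 of 19 each. Leaving out 1 library at a time gave 0 to 1 called members at d0, at d8 and over WT differentiation, 1 to 2 between the TET2 genotypes and 1 to 3 between the TET2-S97E clones; where an arm then held 1 library, it was assumed to vary like the others. The replicate numbers are not stated to mark shared cultures, and with 2 per group same-numbered deviations correlated at 0.13 to 0.369 among WT and AMPK-KO groups and at −0.061 to 0.544 among TET2 clones. With a replicate block 2 members were called at d8 (*Actg2*, adjusted p = 0.0398, and *Myl9*, 0.00993), and *Tagln* passed between the TET2-S97E clones. Calls over all genes rose in this setting as well. At d8 they were 329 higher and 815 lower, beside 195 and 571 in the main fit. Between the TET2-S97E clones they were 803 and 737, beside 484 and 408. The cause of these shifts was not tested. The interaction called 0 members in each alternative. Low counts limit *Cnn1*, *Tagln*, *Myh11* and *Myocd*.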

Other observations

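*Acta2* took 21.5 to 66.0% of the counts of the 10 genes in a library and ranked between 17 and 378 among all genes by counts. The elastin gene *Eln* was at or under 3 counts in all 16 libraries, although other matrix genes such as *Fn1* and *Col3a1* were the most abundant of their list in each.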
